A study of Mus musculus with 4 samples.

Results

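The genes described here encode 8 antimicrobial peptides and alarmins of mouse skin: S100a8, S100a9, Lcn2, Slpi, Wfdc12, Defb1, Defb6 and Saa3. They were chosen by name, with earlier results of these data known. All 8 were found among the 32285 genes of each of 4 single-cell RNA-seq libraries. Those libraries, 1 per group, were made from back skin epidermis of adult mice. The controls were DNp63fl/fl mice, which carry floxed alleles of the epidermal p63 isoform, and the experimental mice were DNp63fl/fl;K14-CreT2, in which the keratin 14 promoter drives a tamoxifen-inducible Cre recombinase in keratinocytes. Both genotypes received tamoxifen by gavage at 200 mg/kg daily for 5 days, and skin was taken 1 day or 1 week afterwards. The mice were 2 to 17 months old with equal numbers of each sex, and the epidermis was digested in 0.25% trypsin either overnight at 4 °C or for 2 h at 37 °C. The labels do not say which age, sex or digestion went into which library, nor whether animals were pooled. Library chemistry read the 3′ end of transcripts at 1 day and the 5′ end at 1 week, so each experimental library was set only against the control of its own time point, and the values of the 2 time points are given side by side.

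Antimicrobial peptides form the chemical part of the skin barrier, and keratinocytes make most of them in small amounts until the tissue is wounded, infected or inflamed. S100A8 and S100A9 pair to form calprotectin, which withholds metal ions from microbes and acts as an alarmin when released; both are also abundant in neutrophils. SLPI and WFDC12 belong to the whey acidic protein family and inhibit serine proteases. Lipocalin 2, from Lcn2, binds bacterial siderophores and so withholds iron. Beta-defensins 1 and 6, from Defb1 and Defb6, are small cationic peptides that disrupt microbial membranes. Saa3 encodes an acute-phase serum amyloid A protein. Several of these genes are known targets of IL-17, IL-22 and IL-1 family signals acting through NF-kB and C/EBP factors.

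Promoter sequence is shown for the 5 genes that were at least 2-fold higher in experimental keratinocytes at both time points, because these are the ones the results turn on. Each line is the longest stretch of the 250 bases before the RefSeq start that holds no annotated exon, read 5′ to 3′ on the gene's strand from GRCm38.p6. Capitals mark matches, on either strand, to the C/EBP motif TTNNGNAA or the NF-kB motif (3 G, then 5 bases of any kind, then 2 C). S100a8 and S100a9 lie 22597 bp apart on chromosome 3, on opposite strands. Slpi and Wfdc12 lie 163462 bp apart on chromosome 2, on the same strand.
S100a8, chr3:90668821-90668977, plus strand: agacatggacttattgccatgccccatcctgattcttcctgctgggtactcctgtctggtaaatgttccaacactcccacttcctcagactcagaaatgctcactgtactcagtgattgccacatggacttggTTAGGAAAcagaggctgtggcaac
S100a9, chr3:90695722-90695971, minus strand: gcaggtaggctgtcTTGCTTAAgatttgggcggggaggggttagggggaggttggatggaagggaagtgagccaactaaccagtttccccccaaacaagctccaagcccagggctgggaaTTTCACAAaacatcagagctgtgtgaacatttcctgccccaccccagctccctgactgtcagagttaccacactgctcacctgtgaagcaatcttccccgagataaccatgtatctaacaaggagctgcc
Slpi, chr2:164356508-164356757, minus strand: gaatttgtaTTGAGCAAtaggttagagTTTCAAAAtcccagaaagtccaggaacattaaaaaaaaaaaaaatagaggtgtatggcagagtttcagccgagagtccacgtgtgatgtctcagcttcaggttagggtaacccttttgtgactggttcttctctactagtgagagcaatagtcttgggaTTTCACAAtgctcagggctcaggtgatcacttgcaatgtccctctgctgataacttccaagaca
Wfdc12, chr2:164190609-164190808, minus strand: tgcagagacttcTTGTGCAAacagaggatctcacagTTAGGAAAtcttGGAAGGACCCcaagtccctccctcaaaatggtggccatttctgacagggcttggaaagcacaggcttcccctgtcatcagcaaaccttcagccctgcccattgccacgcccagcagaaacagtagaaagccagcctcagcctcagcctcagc
Lcn2, chr2:32387798-32387850, minus strand: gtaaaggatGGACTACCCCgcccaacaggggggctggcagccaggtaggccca

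RefSeq promoter entries, each of 300 bases, were matched for 7 of the 8 genes; none was matched for Defb1. The C/EBP motif was present in 7 of these 7 windows, beside 40.7% of all 32851 promoter windows of that length. The NF-kB motif was present in 3 of 7 (Lcn2, Wfdc12 and Defb6), beside 50.8% of all windows, and the AP-1 motif TGANTCA in 0 of 7, beside 7.81%. Matches were sought on both strands and could overlap, and a match describes letters only. The GENCODE annotation of the same assembly places Defb1 and Defb6 on chromosome 8 (21776599 to 21795185 and 19225478 to 19228209) and Saa3 on chromosome 7 (46711998 to 46715700). Wfdc12 overlaps the antisense gene A730032A03Rik, which lies on the opposite strand. The sources used here do not state how the counting treated strand, and how well the RNA of the 2 genes was kept apart was not tested. Slpi overlaps the microRNA gene Mir7678. The RefSeq starts of Slpi, Lcn2, S100a8, Wfdc12 and Saa3 lie inside their longer GENCODE models. The printed stretches of Slpi and Lcn2 lie inside those models too, between exons.

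A UMI, or unique molecular identifier, marks 1 captured RNA molecule. Levels are given as CPM, the UMIs of a gene for every 1000000 UMIs of all genes, summed over the cells of a class. Across the libraries, 4233 to 23651 cells were kept, and Trp63, the targeted gene, was lower in experimental keratinocytes at 1 day (404 to 131 CPM, log2 ratio -1.62) and at 1 week (435 to 148, log2 ratio -1.56). Between 9 and 661 cell barcodes were shared by pairs of libraries, most of them by the 1 week pair. With 1 library per group there is no test between conditions: intervals are 95% and cover counting error only. A gene counted as higher or lower where its ratio reached 2-fold, or where 1 library had 0 UMIs, with at least 20 UMIs in both libraries together and 50 cells of the class in each. Cells were clustered without the 8 genes or their related genes, and clusters were named from marker genes. Clusters of keratinocytes that matched no layer are called keratinocytes without a layer. A set of clusters led by Krt8, nearly all from experimental libraries, was kept apart. These Krt8-led cells were 5039 of 23651 experimental cells at 1 day and 237 of 4233 at 1 week, against 3 and 5 control cells. They also carried keratinocyte markers, and values for keratinocytes leave them out unless stated. In the experimental libraries, keratinocytes without a layer were 8396 of 17372 keratinocytes at 1 day and 1335 of 3264 at 1 week, against 3022 of 20526 and 1590 of 6935 in the controls.

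S100a8 and S100a9, the calprotectin pair, were higher in experimental keratinocytes at both time points. S100a8 was at 1.36 CPM in the 1 day control (147 UMIs) and 18.8 in the 1 day experimental library (1397 UMIs), and at 0.872 in the 1 week control (48 UMIs) and 62.8 in the 1 week experimental library (2133 UMIs). The log2 ratio was 3.78 (3.54 to 4.04) at 1 day and 6.17 (5.76 to 6.61) at 1 week. The S100a9 level was 2.75 and 19.1 CPM at 1 day and changed from 1.598 to 123 at 1 week, log2 ratios of 2.80 (2.62 to 2.98) and 6.27 (5.96 to 6.59). Both genes were therefore high in the experimental library of each time point and low in both controls. A single control cell held 54 of the 147 S100a8 UMIs and 74 of the 296 S100a9 UMIs of the 1 day control, and a single cell held 22 of the 48 S100a8 UMIs of the 1 week control. Without each library's highest cell the S100a8 ratio was 4.27 at 1 day and 6.90 at 1 week. With the Krt8-led cells counted as keratinocytes the 1 day ratios were 3.48 for S100a8 and 2.52 for S100a9.

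Slpi, which encodes the secretory leukocyte protease inhibitor, was also higher at both time points. It went from 4.27 CPM (460 UMIs) to 365 (27175 UMIs) at 1 day and from 6.70 (369 UMIs) to 305 (10371 UMIs) at 1 week. The log2 ratios were 6.42 (6.28 to 6.55) and 5.51 (5.36 to 5.66), or 85.5-fold and 45.5-fold. With the Krt8-led cells counted as keratinocytes the 1 day ratio was 6.20. At 1 day a single control cell held 79 of the 460 control UMIs, and without each library's highest cell the log2 ratio was 6.68. At 1 week a single control cell held 213 of the 369 control UMIs, and without each library's highest cell the log2 ratio was 6.69. Wfdc12, its family neighbour on chromosome 2, went from 0.204 (22 UMIs) to 12.7 (943 UMIs) at 1 day (log2 ratio 5.95, 5.35 to 6.64). The 1 week libraries had 1 Wfdc12 UMI in the control and 352 in the experimental library (10.4 CPM), a log2 ratio of 9.16 with the wide interval of 6.67 to 14.46 that 1 control UMI gives. Both protease inhibitors were low in control keratinocytes and high in experimental ones at each time.

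Lcn2, the iron-withholding lipocalin, was higher at both time points. It was at 7.58 CPM in the 1 day control (817 UMIs) and 17.4 in the experimental library (1296 UMIs), with a log2 ratio of 1.20 (1.07 to 1.33). It went at 1 week from 5.01 (276 UMIs) to 129 (4399 UMIs), a log2 ratio of 4.69 (4.51 to 4.87). The 1 day levels pool classes that differed. Sebaceous-like cells, 582 of the 20526 control keratinocytes, had Lcn2 at 145 and 99.8 CPM (control and experimental). Upper follicle-like cells had 95 and 176 Lcn2 UMIs, and bulge or outer root sheath-like cells 24 and 421. Basal-like cells had 17 and 1 (4754 and 465 cells) and suprabasal-like cells 22 and 5 (4892 and 948 cells). The 1 day call was lost when the Krt8-led cells were counted as keratinocytes (0.90), when experimental layers were taken from the nearest control cells (0.90) and when the level in T cells was subtracted from both libraries (0.63). The experimental level subtracted rested on few UMIs. A single T cell-like cell held 9 of the 13 Lcn2 UMIs of all T cell-like and Langerhans or dendritic-like cells of that library.

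Defb6 and Defb1 were present in control keratinocytes, and Defb6 differed by less than 2-fold. Defb6 was at 746 and 852 CPM at 1 day and at 504 and 466 at 1 week, log2 ratios of 0.19 and -0.11. Upper follicle-like cells held 67.9% and 51.5% of these UMIs at 1 day and 63.1% and 62.0% at 1 week. They were 465 of 6935 control and 540 of 3264 experimental keratinocytes at 1 week, so the pooled levels mix unequal shares of this class. Within it the Defb6 log2 ratio was -0.41 at 1 day and -1.57 at 1 week. The other keratinocytes had Defb6 at 261 and 458 CPM at 1 day, between the 469 and 467 CPM of T cell-like and the 123 and 126 CPM of Langerhans or dendritic-like cells, and at 198 and 212 at 1 week, above the 58.2 and 44.2 of T cell-like cells, though the experimental level lay below the 242 of Langerhans or dendritic-like cells (12.6 in the control). A single cell held 59 of the 198 Defb6 UMIs behind that 242. At 1 week 14 keratinocyte markers summed to 22521 and 23129 CPM in Langerhans or dendritic-like cells, beside 3637 and 3559 in T cell-like cells. The part of keratinocyte RNA in these background levels was not tested. Defb1 was at 113 and 122 at 1 day (0.11) and at 97.5 and 202 at 1 week, a log2 ratio of 1.05 (1.00 to 1.10) that lay at the 2-fold limit. That call for Defb1 was lost under 6 alternatives, with ratios of 0.93 to 0.98, among them both other scalings (0.97 and 0.96). At 1 day both defensin ratios turned negative when the Krt8-led cells were counted as keratinocytes, to -0.19 for Defb1 and -0.09 for Defb6. Saa3 was barely detected, with 24 control and 31 experimental UMIs at 1 day, then 0 and 4 at 1 week.

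In all, 5 of the 8 genes were at least 2-fold higher in experimental keratinocytes at 1 day, where 7.60% of the 14827 genes with enough UMIs were, and none was lower, beside 2.82%. At 1 week 6 of the 7 genes with enough UMIs were higher, beside 10.2% of 14620, and again none was lower, beside 6.29%. The median log2 ratio of the members was 2.00 at 1 day and 5.51 at 1 week, against 0.03 and 0.09 over all genes with enough UMIs. The genes were chosen with earlier results of these data known, so these counts and medians describe the list and are no test of it.

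**Figure D1:**
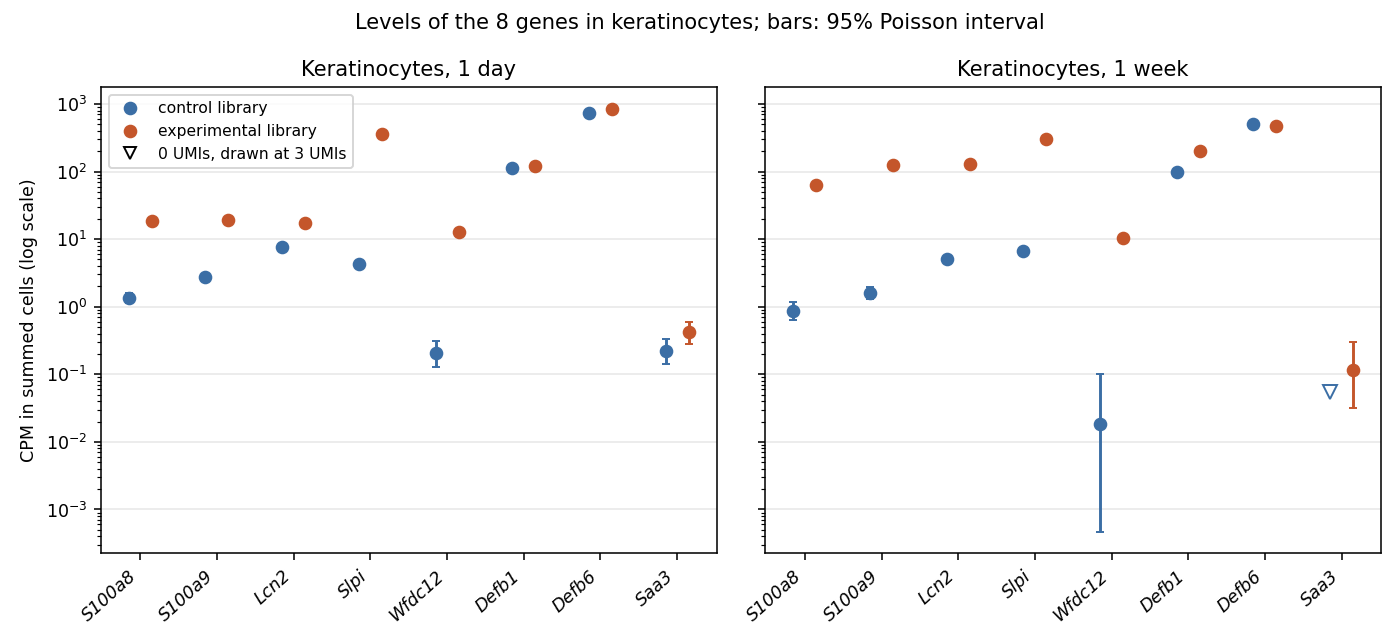
Level of each gene in keratinocytes of the control (blue) and experimental (orange) library at 1 day (left) and 1 week (right), as CPM on a log scale with 95% Poisson intervals; open triangles mark 0 UMIs, drawn at the level 3 UMIs would give. Slpi rises from 4.27 to 365 at 1 day and S100a9 from 1.598 to 123 at 1 week, while the paired points of Defb6 nearly coincide. Each point pools classes whose shares differed between the libraries.

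The share of keratinocytes with a UMI was compared as well. Barcodes that resembled free RNA were left out at 1 week only. To compare libraries of unequal depth, each cell was thinned to 2000 UMIs, which left out 2453 and 3420 shallower keratinocytes at 1 day (control and experimental) and 199 and 172 at 1 week. At 1 day the share with Slpi was 0.398% in the control and 16.1% in the experimental library (unthinned 0.804% and 20.4%), and at 1 week 0.252% and 12.6% (unthinned 0.75% and 19.2%). S100a8 was found in 0.0885% and 1.15% of cells at 1 day and in 0.0742% and 4.72% at 1 week. Lcn2 went from 1.03% to 2.18% of cells and from 0.846% to 10.6%. Wfdc12 was rare throughout, at 0.0111% and 0.824% of cells at 1 day and 0.485% of experimental cells at 1 week. Defb6 was found in 29.2% and 41.0% of cells at 1 day and in 25.4% and 32.4% at 1 week, beside 29.8% and 32.2% of T cell-like cells at 1 day (median depth 3099 and 3899 UMIs among cells kept for thinning, 4651 and 3895 in keratinocytes) and 3.74% and 3.92% at 1 week. In Langerhans or dendritic-like cells the Defb6 share was 15.4% and 17.2% at 1 day (median depth 2645 and 2577 UMIs), so the control keratinocyte share lay above one of these classes and at the level of the other. Slpi was in 1.06% of control and 9.54% of experimental T cell-like cells at 1 day, and at 1 week in 0 of 107 and 1.96%, where 0 cells allow up to 2.80%. Without thinning, S100a8 was in 0.195% and 1.84% of keratinocytes at 1 day and 0.216% and 7.72% at 1 week, Lcn2 in 1.88% and 3.25% and in 2.21% and 22.3%, and Defb6 in 44.4% and 54.1% and in 35.9% and 44.98%.

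The 8 genes differed in how few cells carried them. In the experimental libraries the top 1% of keratinocytes held 96.9% of Wfdc12 UMIs at 1 day and 98.6% at 1 week, and 89.6% and 71.3% of S100a8 UMIs. For Slpi those shares were 35.7% and 56.5%, and for Defb6 19.3% and 12.8%. Cells with UMIs of at least 3 of the 8 genes made up 0.293% of control and 2.19% of experimental keratinocytes at 1 day, and 0.193% and 7.31% at 1 week.

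Most of the calprotectin signal came from a few clusters without a layer. At 1 day cluster 20, led by Cstdc5, Krt6b and stefin genes, held 3.25% of experimental keratinocytes and 69.3% of their S100a8 UMIs, 65.5% of their S100a9 UMIs and 69.7% of their Wfdc12 UMIs. Its 564 experimental cells had S100a8 at 253 CPM, S100a9 at 244, Slpi at 838 and Wfdc12 at 172. Its 123 control cells had 72.3, 112, 61.6 and 5.33, so the summed levels of all 4 genes differed within the cluster too. A single 1 day control keratinocyte without a layer held 54 S100a8, 74 S100a9 and 79 Slpi UMIs. How far that cell set these control levels was not tested. At 1 week cluster 16, with 245 experimental cells and none from the control, was also led by Krt6b and held 72.9% of S100a8 and 70.6% of S100a9 UMIs of experimental keratinocytes. Cluster 38, with 70 experimental cells and none from the control, had S100a9 at 3023 CPM, S100a8 at 1143 and Defb1 at 1368, but no Lcn2 UMI. S100a8 and S100a9 are themselves among the 10 leading genes of clusters 20 and 38, so their height there describes the clusters.

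Slpi followed another distribution. At 1 day cluster 4, with 3512 experimental cells and 1 control cell, held 60.03% of the Slpi UMIs of experimental keratinocytes at 856 CPM, while S100a8 was at 2.36 there. Its other leading genes included the small proline-rich genes Sprr2d, Sprr2e, Sprr2f and Sprr2h. At 1 week Slpi was at 1770 CPM in the granular-like cluster 24 and at 554 in cluster 23, in which S100a8 and S100a9 had 0 UMIs. The Krt8-led cells had Slpi at 120 and S100a8 at 1.94 CPM in the 1 day experimental library.

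**Figure D2:**
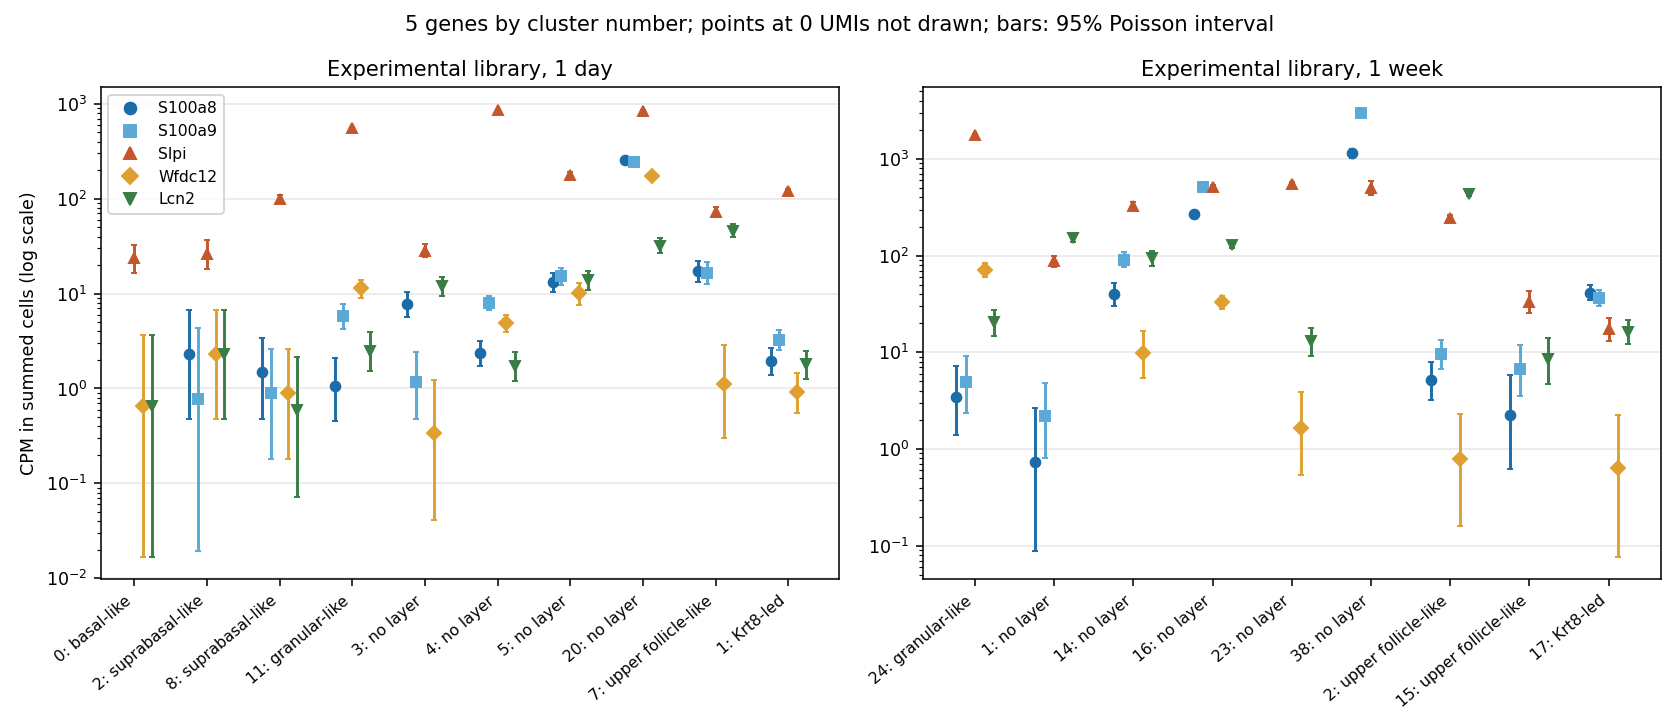
S100a8, S100a9, Slpi, Wfdc12 and Lcn2 in selected clusters of the experimental libraries at 1 day (left) and 1 week (right), in CPM on a log scale with 95% Poisson intervals; genes at 0 UMIs are not drawn. S100a8 and S100a9 peak in cluster 20 at 1 day (253 and 244) and cluster 38 at 1 week (1143 and 3023), whereas Slpi is also high in clusters 4 and 24.

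Within single experimental cells, S100a9, Slpi and Defb1 were each found in a larger share of the cells with S100a8 than of the cells without it. Of 161 experimental keratinocytes with an S100a8 UMI at 1 day, 30.4% also had S100a9, against 0.91% of the cells without S100a8. At 1 week the shares were 67.8% of 146 cells and 3.12%. Slpi was found in 32.9% of S100a8-positive and 15.9% of S100a8-negative cells at 1 day, and in 41.8% and 11.2% at 1 week. Defb1 was found in 25.5% and 15.3% at 1 day and in 61.6% and 19.1% at 1 week. Lcn2 was found in 3.73% of S100a8-positive and 2.16% of S100a8-negative cells at 1 day, and in 10.3% and 10.7% at 1 week. These shares describe 1 library each, and whether depth before thinning moves with them was not tested.

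**Figure D3:**
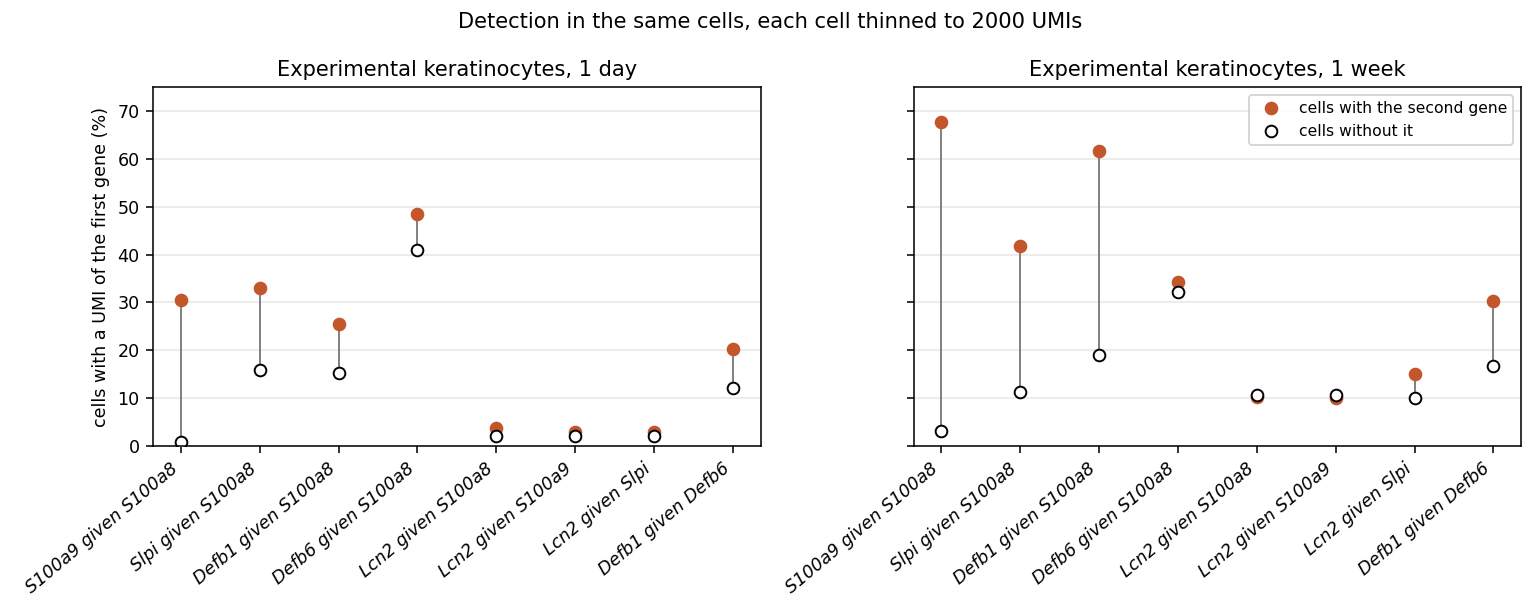
Share of experimental keratinocytes with a UMI of one gene among cells with (orange) and without (open) a UMI of a second gene, after thinning to 2000 UMIs, at 1 day (left) and 1 week (right). S100a9 was found in 30.4% and 67.8% of S100a8-positive cells, while the orange and open points of Lcn2 given S100a8 at 1 week lie together, at 10.3% and 10.7%.

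By layer, basal-like cells (4754 control and 465 experimental at 1 day) held little of the 5 genes. S100a8 had 0 UMIs in both libraries, which allows up to 3 UMIs in each. Slpi was at 0.7004 and 23.7 CPM, a log2 ratio of 5.08 (4.18 to 6.06), and was the only gene counted as higher, beside 4.91% of genes in that class, and none was lower, beside 6.45%. With layers taken from the nearest control cells 4 genes were higher, with no minimum of UMIs 2, and with the T cell-like level subtracted 0. T cell-like cells of the same experimental library, which should not make SLPI in quantity, had Slpi at 125 CPM, and it was found in 5.08% of basal-like and 9.54% of T cell-like cells after thinning. Langerhans or dendritic-like cells of that library had Slpi at 19.6 CPM and in 4.30% of cells (median depth 2577 UMIs). The basal-like level and share lay between those of the 2 classes, so the background depended on the class chosen, and the Slpi of basal-like cells is read neither as expression nor as its absence. Those T cell-like cells themselves carried keratinocyte RNA, with a summed level of 14 keratinocyte markers of 14186 CPM in the control and 35135 in the experimental library, beside 50800 and 47827 in keratinocytes and 5364 and 5976 in Langerhans or dendritic-like cells. Their 11 T cell markers summed to 9341 and 2606 CPM, and the part of either in the levels was not tested. Defb6 was at 82.5 and 117 and Defb1 at 17.1 and 20.4 CPM; the share of basal-like cells with Defb6 (15.3% and 14.2%) lay at or below that of T cell-like cells (29.8% and 32.2%) and of Langerhans or dendritic-like cells (15.4% and 17.2%).

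In suprabasal-like cells at 1 day (4892 and 948 cells) 2 genes were higher, beside 5.54% of genes, and none was lower, beside 4.96%. The count was 5 with finer clustering, 6 with layers taken from the nearest control cells, 4 with no minimum of UMIs and 1 with the T cell-like level subtracted. Slpi went from 2.60 to 79.2 CPM, again between the T cell-like and the Langerhans or dendritic-like level, and was found in 6.01% of experimental cells after thinning. Its log2 ratio was 4.93, or 7.57 with layers taken from the nearest control cells and 5.69 with finer clustering. Defb1 went from 124 to 324, a log2 ratio of 1.39 (1.30 to 1.47). Different clusters held most of the class in the 2 libraries, cluster 2 in the control and cluster 8 in the experimental library. Within cluster 2 Defb1 was at 23.8 and 34.6 CPM and within cluster 8 at 253 and 436, less than 2-fold in each. Finer clustering (Leiden resolution 2) turned the class ratio to -0.28, and assigning experimental cells the layer of their nearest control cells turned it to -0.75.

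Granular-like cells, the outermost living layer, were few in the control at 1 day (183 cells, against 1540). Slpi went from 51.9 to 516 CPM there, a log2 ratio of 3.31 (3.01 to 3.63), and was in 5.75% and 25.5% of cells after thinning. That ratio was 2.61 with finer clustering, 2.64 with doublets kept and 3.89 without each library's highest cell. Wfdc12 had 0 and 97 UMIs, at least 6.47-fold higher, and Lcn2 had 0 and 24, at least 1.601-fold higher, each against a floor of 3 UMIs in the control. These 3 genes were counted as higher, beside 12.4% of genes, though the bound for Lcn2 did not reach 2-fold and its 2.77 CPM lay between the 0.890 CPM of Langerhans or dendritic-like and the 7.87 CPM of T cell-like cells of that library. Of the 13 Lcn2 UMIs of those 2 classes together, 9 came from 1 T cell-like cell. Defb1 was lower, from 533 to 238, a log2 ratio of -1.16 (-1.27 to -1.05), beside 4.15% of genes that were lower. It was also lower within cluster 11, which held most of the class in both libraries (535 and 254), but the class ratio was -0.51 with finer clustering, -0.46 with layers taken from the nearest control cells and -0.90 with doublets kept, and finer clustering left 1 gene counted as higher. After thinning, Defb1 was found in 12.5% of control and 34.7% of experimental suprabasal-like cells and in 58.6% and 31.3% of granular-like cells, classes made of the clusters just named.

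At 1 week the experimental library held 14 basal-like and 12 suprabasal-like cells, against 1913 and 1842 in the control, and the control held 28 granular-like cells, against 124, so that 1 library had too few cells for a ratio in each class. In the granular-like cells Slpi was at 37.1 and 1770 CPM and Wfdc12 had 1 and 142 UMIs. Defb1 was at 381 and 221 and Defb6 at 401 and 171 in the same cells.

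**Figure D4:**
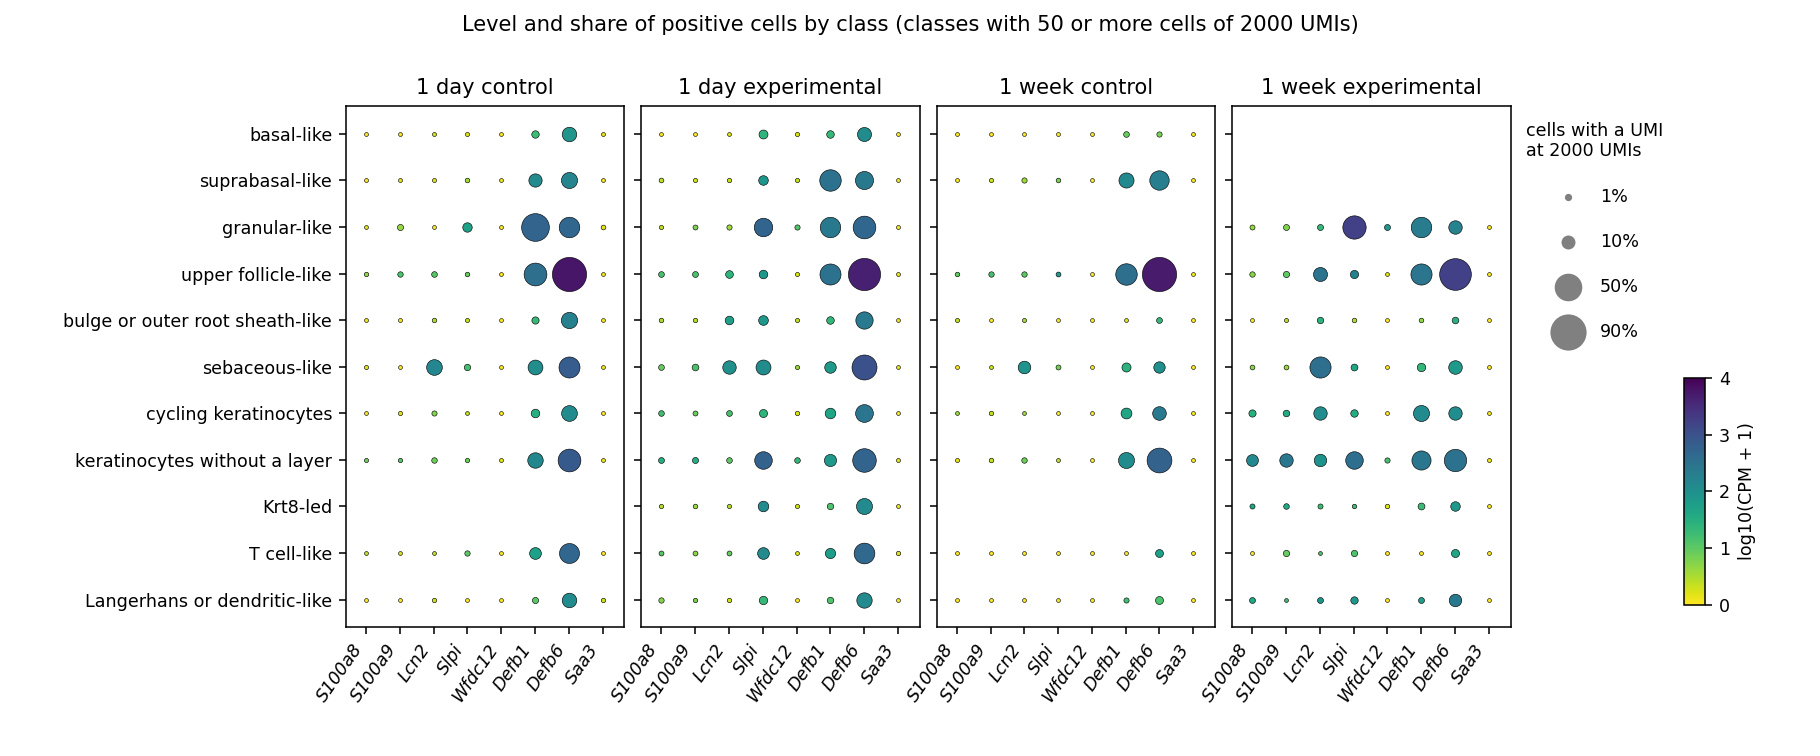
Level (colour, log10 of CPM plus 1) and share of cells with a UMI after thinning to 2000 UMIs (dot size) for the 8 genes in each class with 50 or more such cells, for the 4 libraries from left to right. Defb6 is largest in upper follicle-like cells in every library, where 89.8% and 90.04% of control cells had a UMI.

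The upper hair follicle was the site of highest Defb6. At 1 day its level was 5995 CPM in 2124 control cells and 4515 in 2019 experimental cells, a log2 ratio of -0.41, which was -1.31 with experimental layers taken from the nearest control cells, past 2-fold lower. At 1 week it was 5204 in 465 control cells and 1750 in 540 experimental cells, a log2 ratio of -1.57 (-1.61 to -1.54; -2.17 from nearest control cells), and Defb6 was then counted as lower, beside 2.15% of genes. Both upper follicle clusters were lower at 1 week, cluster 2 from 6421 to 2126 and cluster 15 from 2627 to 936. The share of cells with Defb6 after thinning went from 89.8% to 79.4% at 1 day and from 90.04% to 77.0% at 1 week. Upper follicle-like cells held 60.8% of all Defb6 UMIs of the 1 week control and 60.1% of those of the 1 week experimental library. Defb1 was at 362 and 325 at 1 day and at 355 and 278 at 1 week, less than 2-fold lower.

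Lcn2 moved in the opposite direction in the upper follicle. It was at 10.4 and 24.3 CPM at 1 day, a log2 ratio of 1.22 (0.85 to 1.598), and at 9.22 and 304 at 1 week, a log2 ratio of 5.04 (4.53 to 5.60). The 1 day ratio was 0.87 with the T cell-like level subtracted and 0.88 from nearest control cells, under 2-fold, and the 1 week ratio was 3.66 with finer clustering and 5.85 without each library's highest cell. Cluster 2 held most of it at 1 week, with Lcn2 at 13.6 and 440. Lcn2 was found in 1.11% of control and 14.2% of experimental upper follicle cells at 1 week after thinning.

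Slpi in the upper follicle was at 8.01 and 71.9 CPM at 1 day (log2 ratio 3.17) and at 66.6 and 178 at 1 week (1.42). The 1 day ratio was 5.80 with finer clustering, 5.22 from nearest control cells, 4.05 without the highest cells and 3.81 with doublets kept. At 1 day its experimental level and share (4.59% of cells) lay below those of T cell-like cells (125 CPM and 9.54%) and above those of Langerhans or dendritic-like cells (19.6 CPM and 4.30%). At 1 week 213 of the 224 control UMIs came from 1 cell, and the log2 ratio was 5.33 without each library's highest cell and -1.16 with finer clustering. S100a8 was at 3.73 and 13.5 at 1 day (1.86, or 2.89 with finer clustering and 3.57 from nearest control cells), beside 10.5 in experimental T cell-like and 4.45 in Langerhans or dendritic-like cells. A single T cell-like cell held 12 of the 21 S100a8 UMIs of those 2 classes together. In the upper follicle S100a8 was at 8.62 and 4.28 at 1 week (-1.01), where 22 of the 29 control UMIs came from 1 cell and the ratio became 0.62 without the highest cells. At 1 day 3 of 6 genes with enough UMIs were higher in the upper follicle, beside 3.32% of genes, and none lower, beside 1.25%; at 1 week 2 were higher, beside 8.85%, and 2 lower, beside 2.15%. With the T cell-like level subtracted, none of the 3 was 2-fold higher at 1 day.

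**Figure D5:**
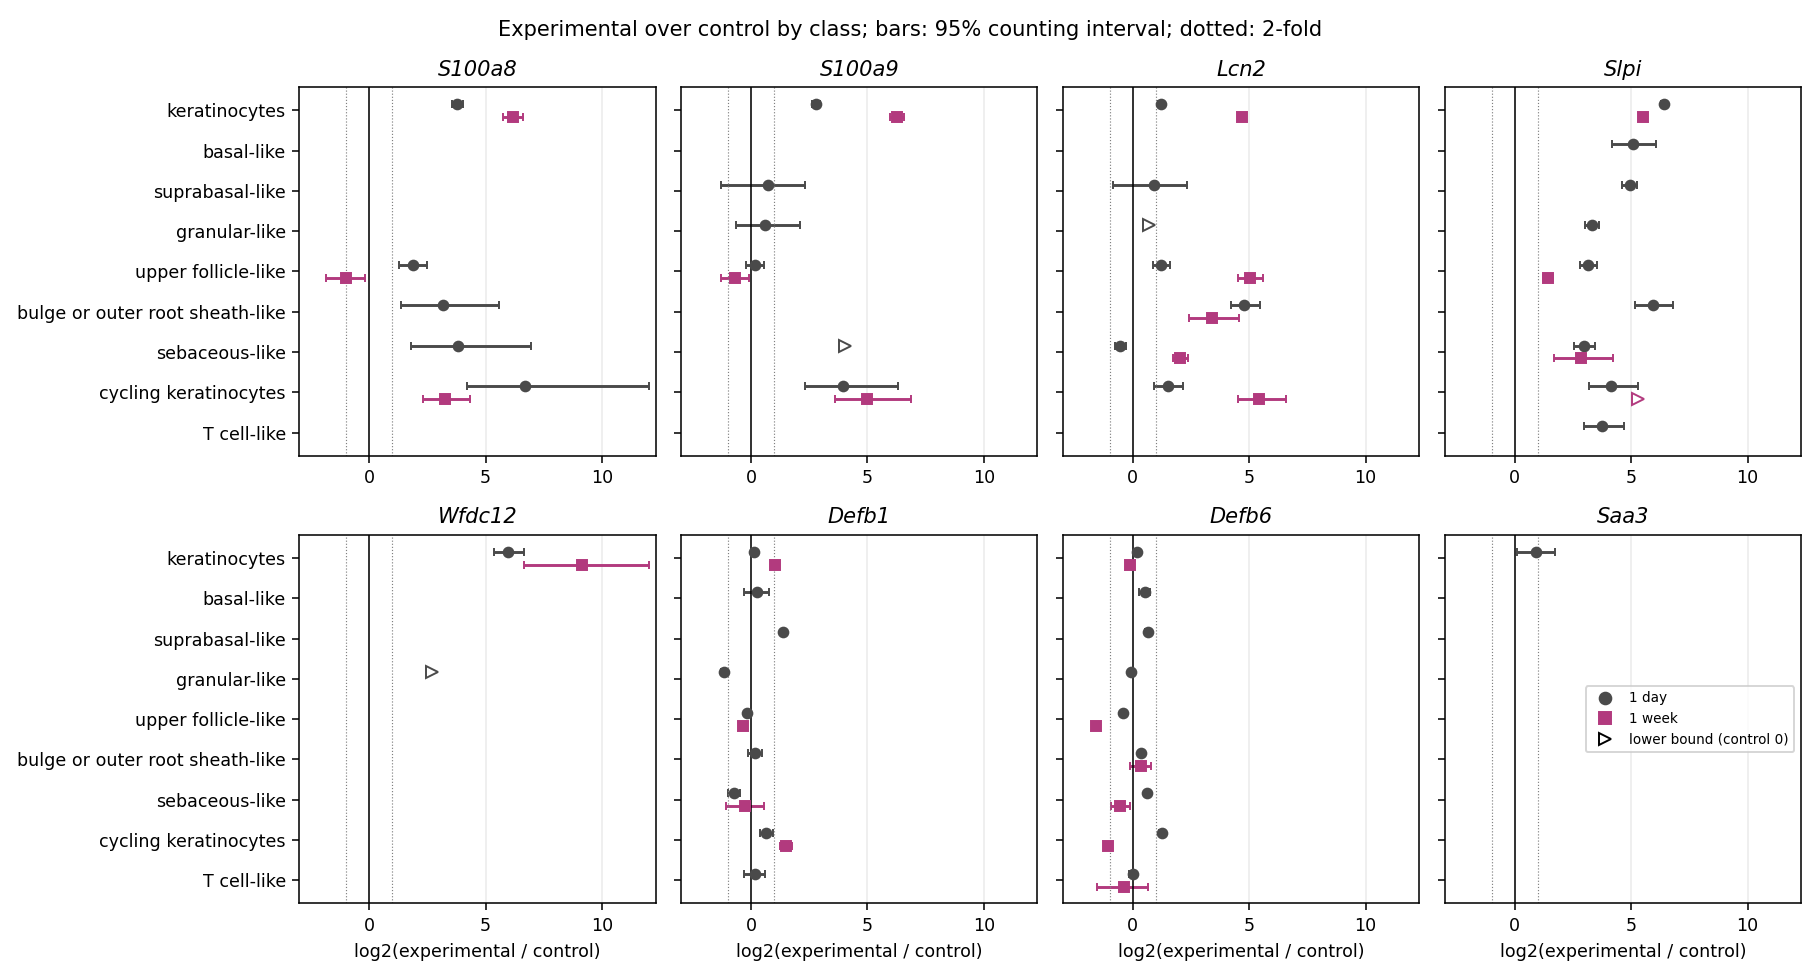
Log2 ratio of experimental to control level for each gene by class, 1 day (grey circles) and 1 week (magenta squares), with 95% counting intervals; open arrows are lower bounds where the control had 0 UMIs, dotted lines mark 2-fold, and classes with too few cells or UMIs are blank. Lcn2 in the upper follicle lies at 1.22 at 1 day and 5.04 at 1 week, and Defb6 there at -0.41 and -1.57; intervals that pass the right edge are drawn only up to 12.

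Lcn2 was also higher in cells of the lower follicle at both times. In bulge or outer root sheath-like cells it went from 2.10 to 58.0 CPM at 1 day, a log2 ratio of 4.79 (4.20 to 5.45), and from 2.51 to 26.3 at 1 week (3.39). The 1 day ratio ran from 3.87 with doublets kept to 6.20 with the T cell-like level subtracted. The 1 week level lay between the 12.1 CPM of T cell-like and the 83.3 CPM of Langerhans or dendritic-like cells of that library, and the ratio was 7.20 with finer clustering and 2.51 with the T cell-like level subtracted. Keratinocyte markers summed to 3559 CPM in those T cell-like and 23129 CPM in those Langerhans or dendritic-like cells. Both background levels rested on few UMIs. The T cell-like cells had at most 3 of Lcn2, and the Langerhans or dendritic-like cells had 68 in 7 of 73 cells, 27 of them in 1 cell. At 1 day 1 cluster of 198 experimental cells, cluster 24, had Lcn2 at 405, against 6.73 in its 115 control cells. In that class 3 of the 5 genes with enough UMIs (Lcn2, Slpi and S100a8) were higher at 1 day, beside 3.16% of genes, and 1 of 2 at 1 week, beside 3.93%. At 1 day S100a8 (2.34 CPM) lay below its experimental level in T cell-like (10.5) and Langerhans or dendritic-like cells (4.45), Slpi (74.8) lay between them (125 and 19.6), and Lcn2 lay above both (7.87 and 0.890). In those 2 classes together 1 T cell-like cell held 12 of the 21 S100a8 UMIs, and another held 9 of the 13 Lcn2 UMIs. None was lower in bulge or outer root sheath-like cells, beside 1.16% of genes at 1 day and 5.07% at 1 week. In sebaceous-like cells 3 of 6 genes (S100a8, S100a9 and Slpi) were higher at 1 day, beside 6.64% of genes. Slpi (115 CPM) and S100a8 (7.89) lay between the levels of those 2 classes, and S100a9 (13.8) lay above both (3.94 and 5.34). These cells had Lcn2 at 145 and 99.8 at 1 day (-0.54) and at 87.8 and 358 at 1 week (2.03). Most of the 1 week experimental sebaceous cells were in cluster 18, which held no control cell, but Lcn2 also differed within cluster 21 (87.8 and 399). In the 1 week sebaceous-like class 2 of 4 genes were higher, beside 9.36% of genes, and none was lower at either time, beside 2.43% at 1 day and 6.32% at 1 week.

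Cycling keratinocytes had 5 of 6 genes higher at 1 day, beside 5.25% of genes, with none lower, beside 2.55%. There were 5 of 6 higher at 1 week, beside 8.63%, with 1 lower, beside 5.86%. At 1 day Slpi (24.3 CPM) and Defb6 (282) lay between the experimental T cell-like levels (125 and 467) and the Langerhans or dendritic-like ones (19.6 and 126), while S100a8 (15.9), S100a9 (7.12) and Lcn2 lay above both. Lcn2 was at 4.90 and 14.05 CPM at 1 day and at 2.65 and 114 at 1 week, a log2 ratio of 5.43 (4.49 to 6.56). Slpi had 0 and 220 UMIs at 1 week, at least 39.3-fold higher. At 1 week the experimental Slpi level (34.7 CPM) lay between those of T cell-like (12.1) and Langerhans or dendritic-like cells (71.0). The 58 Slpi UMIs of the latter came from 4 cells, 33 of them from 1 cell. Keratinocyte markers summed to 23129 CPM in those Langerhans or dendritic-like cells, beside 3559 in T cell-like cells. The S100a8 level (28.0) lay below the 40.4 of Langerhans or dendritic-like cells, 31 of whose 33 S100a8 UMIs came from 1 cell. S100a9 (36.8), Lcn2 and Defb1 (123) lay above both classes. Defb6 was higher at 1 day (120 and 282, log2 ratio 1.24) and lower at 1 week (228 and 108, -1.07), a difference between time points that was not tested. The 1 day ratio was 0.43 with doublets kept and 0.92 as a mean over cells, and the 1 week ratio was -0.41 with free-RNA-like barcodes kept, so neither call held under every alternative.

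Immune-like cells, that is T cell-like, Langerhans or dendritic-like and macrophage-like cells together, numbered 1138 control and 877 experimental cells at 1 day, then 369 and 200 at 1 week. At 1 day Slpi went from 5.41 to 80.5 CPM (3.90) and S100a8 from 2 to 21 UMIs, 12 of them in 1 cell, so that 2 of 4 genes were higher, beside 7.29% of genes, and none lower, beside 7.01%. A single T cell-like cell held 10 of the 13 control Slpi UMIs, and the Slpi log2 ratio was 5.70 without each library's highest cell. In T cell-like cells Slpi was at 9.21 and 125, and the median depth was 1242 UMIs in the control and 2918 in the experimental library. The keratinocyte markers in these cells moved the same way, from 14186 to 35135 CPM, and their part in the Slpi level was not tested. Defb6 was at 469 and 467 in T cell-like cells, and no expression by T cells is read from it.

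At 1 week 6 genes were higher in immune-like cells, beside 7.97% of genes, with none lower, beside 4.72%, and single cells supplied much of this. S100a9 had 0 and 196 UMIs (at least 75.2-fold higher) and S100a8 0 and 72 (at least 27.6-fold higher). A single cell of the macrophage-like cluster, with 2440 UMIs and UMIs of 8 of the 10 neutrophil markers, held 181 of the S100a9 and 39 of the S100a8 UMIs. Lcn2 had 0 and 94 UMIs and Slpi 0 and 74. Defb1 was at 12.9 and 41.2 and Defb6 at 55.6 and 183 CPM. As a mean over cells their log2 ratios were 0.22 and 0.21, and that of Defb1 was 0.65 with finer clustering, all under 2-fold. The cell with the most Lcn2, Defb1 and Defb6 UMIs was a Langerhans-like cell of 49899 UMIs, beside a median of 6505 for that class. With finer clustering 3 genes were higher and the Defb6 ratio was -0.21. T cell-like cells at 1 week had 0 to 3 UMIs of each gene other than Defb6 (58.2 and 44.2 CPM).

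Of the 10 neutrophil markers, some moved with S100a8 and S100a9 in keratinocytes. Retnlg, Ly6g and Mmp8 had 0 UMIs in experimental keratinocytes at both times, and the summed level of the 10 markers was 43.4 and 26.0 CPM at 1 day and 83.1 and 28.2 at 1 week. Il1r2, a decoy receptor that keratinocytes also express, gave 41.6 and 18.6 CPM of that sum at 1 day and 82.4 and 13.5 at 1 week. The other 9 markers summed to 1.79 and 7.33 CPM at 1 day and to 0.636 and 14.6 at 1 week, a sum that was higher in the experimental library while Il1r2 was lower. Mmp9 was also lower, with 95 and 27 UMIs at 1 day and 13 and then 3 at 1 week, and the other 6 had 0 to 2 UMIs in each library. Cxcr2 did increase, from 91 to 464 UMIs at 1 day and from 5 to 186 at 1 week, and Hdc from 6 to 52 and from 16 to 307, and in the 1 week experimental library they came to 5.47 and 9.03 CPM. Their part in the S100a8 and S100a9 levels was not tested.

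Related genes were counted in keratinocytes by role, in lists also chosen with earlier results of these data known. Over all genes 7.60% were higher at 1 day and 10.2% at 1 week, 2.82% and 6.29% were lower, and the median log2 ratios were 0.03 and 0.09. Of 24 other antimicrobial proteins and alarmins with enough UMIs (of 33 listed), 8 were higher and 3 lower at 1 day, with a median log2 ratio of 0.42, and 9 higher and 3 lower at 1 week, with a median of 0.11, close to that of all genes. The other scalings left 8 of these 9, without S100a7a (0.98 and 0.97). Wfdc18, another whey acidic protein, was at 0.835 and 11.9 CPM at 1 day and at 0.581 and 21.3 at 1 week. Pglyrp3, a peptidoglycan recognition protein, went from 3.64 to 19.4 and from 5.81 to 31.6, and Defb14, a further beta-defensin, from 0.594 to 3.37 and from 0.636 to 3.35. Pglyrp1, Wfdc5 and Defb3 were also higher at both times, and Lyz2, lysozyme 2, was the 1 gene of the lists that was lower at both (0.353 to 0.175 and 2.29 to 1.06).

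Of the cytokines known to induce these peptides, 7 of 11 had enough UMIs, and 5 were higher at 1 day and 4 at 1 week, with none lower and medians of 2.30 and 2.34. Of the interleukin 36 genes, Il1f6 went from 1.11 to 14.9 and from 0.163 to 33.7 CPM, Il1f8 from 1.34 to 18.6 and from 0.381 to 26.6, and Il1f9 from 15.2 to 75.2 and from 3.14 to 74.7. Il1a went from 2.24 to 14.6 and from 1.76 to 8.92. Il17a, Il17f and Il22 had at most 5 UMIs in keratinocytes of any library, a count that leaves out immune cells. In immune-like cells 6 of the 11 cytokines had enough UMIs at 1 day. There 1 was higher, beside 7.29% of genes, and 1 lower, beside 7.01%. At 1 week 5 had enough UMIs, with none higher, beside 7.97%, and 2 lower, beside 4.72%. Of the 10 receptors of these cytokines, 1 was higher in keratinocytes at 1 day, beside 7.60% of all genes. At 1 week 2 were higher, beside 10.2%, and 1 was lower. Il22ra1 was the 1 higher at both, from 0.186 to 0.725 and from 1.62 to 7.27.

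Of 11 transcriptional regulators, none was called at 1 day and 2 were higher at 1 week, where 10.2% of all genes were, Cebpb from 771 to 1581 CPM (log2 ratio 1.04, and 0.95 under both other scalings, which is under 2-fold) and Cebpd from 79.3 to 264 (1.73). Of the receptors and adaptors for the peptides, 5 of 9 had enough UMIs; none was called at 1 day, and Tlr2 (1.51) and Cd36 (1.83) were higher at 1 week.

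Genes with the most similar pattern were ranked by Pearson's r of log2(CPM + 1) over class-by-library profiles, 25 at 1 day and 20 at 1 week, which share libraries and so are given as a description. S100a8 was closest to Gsdmc (0.73) and then S100a9 (0.72) at 1 day, and to 2610528A11Rik (0.90) and then S100a9 (0.90) at 1 week. S100a9 was closest to Gsdmc4 (0.77) and Gsdmc (0.76) at 1 day and to Cstdc5 (0.91) and Tchh (0.90) at 1 week. Slpi was closest to Sprr2e (0.90) and Elf5 (0.89) at 1 day and to Slc5a8 (0.96) and Slurp1 (0.94) at 1 week. Defb6 was closest to Krt79 (0.95) and Cst6 (0.86) at 1 day and to Cst6 (0.89) and Krt79 (0.88) at 1 week, both markers of the upper follicle. Defb1 was closest to Skint3 (0.91) and Ivl (0.88) at 1 day and Egr2 (0.91) at 1 week. Wfdc12 was closest to Aox4 (0.82) and Psca (0.97). Lcn2 had r = 0.16 with S100a8 at 1 day and 0.48 at 1 week, and its closest genes were Gm12122 (0.84) and Prss12 (0.91).

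Lcn2 was also found outside the epithelium. In fibroblast-like cells Lcn2 was at 405 and 120 CPM at 1 day (log2 ratio -1.75) and at 34.7 and 204 at 1 week (2.55). In the same cells Slpi had 0 and 269 UMIs at 1 day, the summed keratinocyte markers were at 12148 and 34944 CPM, and the median depth was 1131 and 2910 UMIs. At 1 week those markers were at 8356 and 4215 CPM, and the part of keratinocyte RNA in the Lcn2 difference was not tested. Fibroblast-like cells held 29.8% of all Lcn2 UMIs of the 1 day control, and endothelial-like cells held 31.2% of those of the 1 week control. Saa3 had 17 UMIs in fibroblast-like cells of each 1 week library, and 86 of the Saa3 UMIs of the 1 week experimental library, or 80.4%, came from 3 of the 144 cells in clusters without a name, 1 of which held 43.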

How the data were processed

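Single-cell RNA-seq counts of 4 libraries were used, 1 each for control and experimental epidermis at 1 day and 1 week. The authors deposited raw UMI counts, 1 whole number for each gene in each barcode; per the submitters' processing notes they were made with Cell Ranger 5.0.1 against mm10, and Seurat was used afterwards. Gene UMI totals ran from 68191870 to 179736563 per library over 18413 to 33552 barcodes.

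Barcodes with under 500 UMIs, under 300 genes or over 15% mitochondrial UMIs were left out. The lowest UMI count of a deposited barcode was 500 in both controls. It was 1368 in the 1 day and 1059 in the 1 week experimental library, so the floor differed within each pair. Doublets were scored with Scrublet in scanpy 1.11.5; because its automatic threshold marked 17.6%, 0.0031%, 0.012% and 0.027% of barcodes, the highest-scoring were removed at 0.8% per 1000 barcodes instead (26.8%, 25.8%, 20.0% and 14.7%). At 1 week, barcodes under 3000 UMIs whose profile resembled free RNA were also left out, by a limit set after seeing the data. It marked 61.5% of passing control and 73.1% of passing experimental barcodes there. With doublets removed too, 8060 and 4233 cells were left. The same limit marked 25.4% and 36.7% of passing barcodes at 1 day, where they were kept. Cells of each time point were clustered jointly (2000 variable genes without the 8 genes and their related lists, 30 principal components, 15 neighbours, Leiden resolution 1), and clusters were named from marker lists. UMIs were summed per class and library and divided by the class total. Intervals are exact Poisson (levels), Clopper-Pearson (shares) and conditional binomial (ratios), all at 95%. No test between conditions was possible. The scripts were tested on simulated data. Promoters are RefSeq's and gene positions GENCODE's, both on GRCm38.

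The 8 genes, the related lists and the marker lists were chosen with earlier results of these data known. All 8 genes are named throughout; related genes are named where they were at least 2-fold changed the same way in keratinocytes at both time points, and regulators or receptors counted at 1 time point were named after their values were seen. The genes with the highest correlation are those among genes with at least 200 UMIs over the profiles. Alternatives were TMM (edgeR 4.0.16) and median-of-ratios (DESeq2 1.42.0) scaling, totals, filters, doublets, clustering and background subtraction.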

Additional observations from a re-analysis of the deposited data

Results flagged for a closer look

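In 3 cases a gene was at least 2-fold higher at one time point and at least 2-fold lower at the other, so that the single experimental library of each time moved in opposite directions against its own control. The difference between the time points was not tested, with 1 library per group and a different library chemistry at each time. Defb6 in cycling keratinocytes had log2 ratios of 1.24 at 1 day (782 control and 1508 experimental UMIs) and -1.07 at 1 week (773 and 686 UMIs). The 1 day ratio was 0.43 with doublets kept and the 1 week ratio -0.41 with free-RNA-like barcodes kept, both under 2-fold, and the 1 day levels (120 and 282 CPM) lay below those of T cell-like cells (469 and 467), beside 123 and 126 in Langerhans or dendritic-like cells. Lcn2 in fibroblast-like cells had log2 ratios of -1.75 at 1 day (348 and 126 UMIs in 469 and 282 cells) and 2.55 at 1 week (41 and 122 UMIs in 328 and 194 cells). The summed keratinocyte markers in these cells stood at 12148 (control) and 34944 CPM (experimental) at 1 day, then at 8356 and 4215 at 1 week, and their part in the Lcn2 ratios was not tested. S100a8 in upper follicle-like cells had log2 ratios of 1.86 at 1 day (34 and 98 UMIs) and -1.01 at 1 week (29 and 24 UMIs), and 22 of the 29 control UMIs at 1 week came from 1 cell. Without each library's highest cell the 1 week ratio was 0.62, and with the T cell-like level subtracted the 1 day ratio was 0.40. At 1 day 1 T cell-like cell held 12 of the 21 S100a8 UMIs of experimental T cell-like and Langerhans or dendritic-like cells.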

How the results depend on the processing

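No paired analysis was possible because each group has 1 library and the labels give no replicate numbers. In keratinocytes the count of genes at least 2-fold higher ran from 4 to 6 at 1 day and from 5 to 7 at 1 week over the 16 alternatives. Basal-like, suprabasal-like and granular-like cells at 1 week gave no count, with under 50 cells in 1 library.

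Counts that moved by more than 1.5 times were as follows. With no minimum of UMIs, 2 genes were higher in basal-like, 4 in suprabasal-like and 5 in immune-like cells at 1 day. With the T cell-like level subtracted, 0 were higher in basal-like, upper follicle-like and immune-like cells at 1 day and 1 in suprabasal-like cells; T cell-like cells are part of the immune-like class, so that its 0 follows from the subtraction. At Leiden resolution 2 the count was 5 in suprabasal-like and 1 in granular-like cells at 1 day, and 1 in upper follicle-like and 3 in immune-like cells at 1 week. Without each library's highest cell it was 1 in immune-like cells at 1 day. With experimental layers taken from the nearest control cells it was 4 in basal-like and 6 in suprabasal-like cells at 1 day and 5 in upper follicle-like cells at 1 week.

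Of 62 ratios of at least 2-fold, 5 changed sign under an alternative, those of Defb1 in suprabasal-like cells at 1 day (-0.28 at resolution 2, -0.75 from nearest control cells), Slpi in upper follicle-like (-1.16), Defb6 in immune-like (-0.21) and Defb1 in fibroblast-like cells (0.43) at 1 week, the last 3 at resolution 2, and S100a8 in upper follicle-like cells at 1 week (0.62 without the highest cells, 0.032 with doublets kept, 1.10 from nearest control cells, 0.29 with free-RNA-like barcodes kept). Of 41 ratios under 2-fold, 22 changed sign, among them S100a9 in upper follicle-like cells at 1 week (-0.68, then 1.44 from nearest control cells, 0.52 with doublets kept and 0.63 with free-RNA-like barcodes kept), S100a9 in granular-like cells at 1 day (0.59, then -1.13 with the T cell-like level subtracted) and, in keratinocytes at 1 day, Defb1 (0.11, then -0.19) and Defb6 (0.19, then -0.09) from nearest control cells. The cause was not tested. TMM and median-of-ratios scaling shifted upper follicle ratios at 1 week by -0.12 and -0.13.

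The nearest-cell, free-RNA, Krt8-led and highest-cell alternatives were added after seeing the data. The main limits are 1 library per group, counting intervals that leave out variation between mice, and classes rebuilt from markers. A further limit is that cells not expected to make these genes held UMIs of them, whose source was not tested.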

Other observations

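The 1 day matrices also hold counts of 3 hashtag antibodies, and the labels do not say what each marks, so the values are given per hashtag without treating them as replicates. Cells were assigned to a hashtag where it held at least 70% of their hashtag counts, a limit chosen after seeing the data, which assigned 10.97% of control and 4.61% of experimental cells. Keratinocyte Slpi was at 1.77, 10.7 and 5.51 CPM under hashtags 1, 2 and 3 of the control and at 605, 405 and 187 under those of the experimental library. S100a8 was at 3.16, 0.682 and 0.447 in the control and 40.4, 34.1 and 12.4 in the experimental library. S100a9 was at 6.44, 1.023 and 1.79 in the control and at 34.1, 38.9 and 4.65 in the experimental library. Wfdc12 had 2, 0 and 0 UMIs in the control and 113, 135 and 13 in the experimental library. For Slpi, S100a8 and Wfdc12 every experimental value lay above every control value, which describes the assigned cells only. S100a9 overlapped, as 4.65 under experimental hashtag 3 lay below 6.44 under control hashtag 1. Defb1 overlapped too, at 143, 200 and 183 in the control and 142, 89.7 and 151 in the experimental library. Lcn2 overlapped, at 10.98, 8.18 and 12.2 in the control and 31.5, 20.9 and 10.3 in the experimental library. Defb6 overlapped as well, at 781, 1222 and 740 in the control and 913, 812 and 1065 in the experimental library.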
